A study of Mus musculus with 8 samples.

Results

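The 9 genes described here encode the core of mitochondrial fatty acid oxidation: Cpt1a, Slc25a20 and Cpt2 of the carnitine shuttle, the acyl-CoA dehydrogenases Acadvl, Acadl and Acadm, the trifunctional protein subunits Hadha and Hadhb, and Etfdh of the electron transfer system. They were chosen by name from the 20170 genes of the count matrix of UMIs (unique molecular identifiers, each standing for an RNA molecule captured). All 9 were present, and all 9 passed the filter on low counts in the fits of all T cells, of the CD4 class and of the CD8 class. RNA was measured in single T cells purified by magnetic separation from mouse spleens, in 8 libraries that formed 4 groups of 2. WT and SDHA-KO cells were each left unstimulated or stimulated for 48 hours with soluble antibodies to CD3 (5 µg/mL) and CD28 (2.5 µg/mL), which engage the T cell receptor complex and a costimulatory receptor. SDHA-KO stands for Sdha fl/fl CD4-Cre, in which Cre recombinase driven by Cd4 regulatory DNA removes part of Sdha, the catalytic subunit of succinate dehydrogenase (complex II), in T cells. The mice were young adults per the study's methods. The labels do not say whether the 2 libraries of a group came from different mice, so p-values measure only the spread between these libraries, which may be technical. Dead cells were removed before capture in all groups.

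Fatty acids enter mitochondria as acyl-carnitines. Cpt1a on the outer membrane makes the acyl-carnitine and is the step that malonyl-CoA inhibits, Slc25a20 carries it across the inner membrane, and Cpt2 turns it back into acyl-CoA. In the matrix, Acadvl, Acadl and Acadm start each round of oxidation on very long, long and medium acyl chains, and Hadha and Hadhb together carry out the remaining steps of the round on long chains. Electrons from the dehydrogenases pass through the electron transfer flavoprotein to Etfdh, which delivers them to ubiquinone, the pool that succinate dehydrogenase also feeds. Resting and memory T cells are known to use fatty acid oxidation, and newly activated T cells to rely more on glycolysis.

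Hadha and Hadhb are neighbours on mouse chromosome 5 (GRCm38, the build called mm10 by the study), on opposite strands and facing apart. Their RefSeq start sites, at position 30154980 for Hadha and 30155253 for Hadhb, are 273 bases apart, so the region upstream of either gene is largely that of the other. This region is shown because the 2 genes moved in opposite directions on stimulation, that of Acadm because it had the largest SDHA-KO difference of the members after stimulation, and that of Cpt1a because it had the largest fall of the members on stimulation of SDHA-KO cells. Each line holds the 250 bases before the RefSeq start site (GRCm38.p6), 5′ to 3′ on the strand of the gene, with matches to GGGCGG (the GC box) or CCAAT on either strand in capitals.
Hadhb, chr5:30155003-30155252, plus strand: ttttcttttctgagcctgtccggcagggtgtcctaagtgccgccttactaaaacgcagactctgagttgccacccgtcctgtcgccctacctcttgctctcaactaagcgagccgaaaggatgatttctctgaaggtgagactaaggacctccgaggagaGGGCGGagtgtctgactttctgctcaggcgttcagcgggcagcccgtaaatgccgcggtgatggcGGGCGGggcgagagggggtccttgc
Acadm, chr3:153944644-153944893, minus strand: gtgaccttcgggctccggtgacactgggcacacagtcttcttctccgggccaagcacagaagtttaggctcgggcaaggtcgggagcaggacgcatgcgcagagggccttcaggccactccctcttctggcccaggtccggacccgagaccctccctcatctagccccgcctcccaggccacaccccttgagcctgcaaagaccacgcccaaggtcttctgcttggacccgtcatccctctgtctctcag
Cpt1a, chr19:3323051-3323300, plus strand: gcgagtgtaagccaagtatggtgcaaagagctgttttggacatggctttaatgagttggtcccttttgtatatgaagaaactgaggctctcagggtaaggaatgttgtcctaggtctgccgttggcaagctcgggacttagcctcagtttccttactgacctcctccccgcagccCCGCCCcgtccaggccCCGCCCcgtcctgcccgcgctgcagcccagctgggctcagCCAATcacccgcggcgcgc

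Motifs were searched from 250 bases before to 50 after the start, in windows that RefSeq gave for all 9 members. A GC box (GGGCGG, or CCGCCC on the other strand) lay in 7 of the 9 windows, all but those of Acadvl and Acadm, and in 35.7% of all 32851 mouse windows. CCAAT or ATTGG lay in the windows of Cpt1a and Etfdh and in 37.4% of all windows. The estrogen-related receptor element TCAAGGTCA, the E-box CACGTG and the cyclic AMP element TGACGTCA, each on both strands, had no match in a member window and lay in 0.423%, 7.15% and 1.79% of all windows. The palindromic element of nuclear respiratory factor 1 lay in the window of Etfdh and in 0.971% of all windows. These are matches of letters in a short window, not binding sites.

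The libraries held 1395 to 1801 cells and 10947009 to 51398728 UMIs each, from 12846 cells in all, and 23 cell barcodes occurred in more than 1 library. The share of mitochondrially encoded UMIs of a cell, percent.mt, was under 10 in at least 99.8% of unstimulated cells, in 31.8% and 35.5% of stimulated WT cells, and in 80.1% and 83.9% of stimulated cells with the SDHA-KO. Comparisons are therefore also given in cells with percent.mt under 10. Levels are in CPM, that is, counts divided by a library's total after TMM scaling and brought to the same total in each library. Sdha was at 98.0 and 99.0 CPM in unstimulated WT and 46.5 and 46.0 in unstimulated SDHA-KO, and after stimulation at 74.7 and 73.9 in WT and 37.6 and 34.1 in SDHA-KO. In stimulated cells with percent.mt of 10 or more, Sdha was at 127 and 112 CPM of nuclear-encoded UMIs in SDHA-KO and 122 and 115 in WT, so the genotypes overlapped. In stimulated cells with percent.mt under 10 it was at 37.5 and 34.5 in SDHA-KO and 81.4 and 79.3 in WT. All 5 T cell markers were detected in every library. The summed macrophage, erythroid and platelet markers reached at most 8.22 CPM. Summed gamma-delta T cell markers (4 of 7 listed were in the matrix) were at 88.1 to 113 CPM in stimulated SDHA-KO and 10.6 to 11.7 in stimulated WT, and B cell markers at 64.0 to 183 and 37.4 to 79.6 CPM. Without stimulation the gamma-delta markers were at 66.9 to 90.7 CPM in SDHA-KO and 17.1 to 19.7 in WT, and Cd4 at 407 to 475 and 89.5 to 96.2 CPM. Cells of the CD8 class with UMIs of Cd8 genes and none of Cd4 or of the gamma-delta constant gene, called strict cells here, made up 87.2% and 85.0% of that class in the stimulated WT libraries and 33.1% and 37.1% in the SDHA-KO ones. Of the unstimulated CD4 class, strict cells made up 55.8% and 56.8% in WT and 82.1% and 79.2% in SDHA-KO. The CD4 class held 859 of 1703 and 967 of 1801 cells in stimulated WT. In stimulated SDHA-KO it held 1137 of 1648 and 1284 of 1680. Without stimulation it held 933 of 1395 and 951 of 1508 in WT and 1116 of 1441 and 1315 of 1670 in SDHA-KO. Sums over all T cells therefore mix the classes in unlike shares. The part of these differences in the results was not tested, except where values in the restricted cells are given.

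Stimulation of WT cells lowered Cpt1a, Slc25a20, Acadm and Hadhb and raised Acadvl, Acadl and Hadha in CPM. These 7 of the 9 members passed the test in all T cells (edgeR quasi-likelihood test, adjusted p under 0.05), where 68.9% of all genes passed (37% higher and 31.9% lower), so the share of members was near the background. The median log2 fold change of the members was 0.02, against 0.08 over all genes. UMIs per cell rose for all 9 members in both genotypes, as the total per cell did. Cpt1a, for example, went from 0.0861 ± 0.0130 to 0.249 ± 0.0156 UMIs per cell in WT (SD, n = 2) while its CPM fell. A change in the mix of cells and a change within cells cannot be told apart in such sums.

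In the carnitine shuttle, Cpt1a had 13.8 and 10.5 CPM without stimulation and 7.75 and 8.28 CPM with it in WT. The groups did not overlap, and the log2 fold change was -0.59 ± 0.15 (SE, adjusted p = 0.00602). It was -0.34 and did not pass without unstimulated WT replicate 1. In SDHA-KO cells Cpt1a went from 19.8 and 15.9 to 7.32 and 7.62 CPM (-1.25 ± 0.14, adjusted p = 2.41e-05), and this call held without any 1 library. Slc25a20 had 11.6 and 11.2 CPM before and 8.88 and 9.29 CPM after stimulation in WT (-0.33 ± 0.11, adjusted p = 0.0196). The fall of Slc25a20 did not pass without stimulated WT replicate 1 or without either unstimulated WT library (-0.30 to -0.26), and with no composition scaling it became 0.02. In SDHA-KO Slc25a20 changed by -0.21 ± 0.10, which did not pass (adjusted p = 0.0781). Cpt2, with 33 to 367 UMIs per library, did not pass in WT (0.26 ± 0.30, adjusted p = 0.447) or in SDHA-KO (0.45 ± 0.28, adjusted p = 0.168).

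The long-chain dehydrogenases rose. Acadvl went from 23.2 and 19.7 to 32.1 and 34.4 CPM in WT (0.64 ± 0.10, adjusted p = 0.000303) and from 21.0 and 21.6 to 39.4 and 44.6 CPM in SDHA-KO (0.98 ± 0.10, adjusted p = 9.46e-06). Acadl went from 41.5 and 37.7 to 68.9 and 71.5 CPM in WT (0.83 ± 0.08, adjusted p = 8e-06) and from 43.5 and 38.7 to 76.6 and 74.5 CPM in SDHA-KO (0.88 ± 0.08, adjusted p = 3.57e-06). No stimulated library overlapped an unstimulated one for either gene, and both calls held under each alternative run in all T cells.

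Acadm, the medium-chain enzyme, moved in opposite directions in the 2 genotypes. It went from 31.5 and 34.3 down to 25.7 and 24.9 CPM in WT (-0.38 ± 0.08, adjusted p = 0.00135), and from 29.0 and 30.7 up to 41.4 and 39.8 CPM in SDHA-KO (0.44 ± 0.07, adjusted p = 0.000378). The fall in WT did not pass in cells with percent.mt under 10 (-0.06 ± 0.08, adjusted p = 0.515), with no composition scaling (-0.04) or without unstimulated WT replicate 2 (-0.26). The rise of Acadm in SDHA-KO passed in cells with percent.mt under 10 (0.49 ± 0.08, adjusted p = 0.000323).

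Etfdh, which hands the electrons to ubiquinone, had 14.1 and 11.5 CPM before and 13.1 and 12.7 CPM after stimulation in WT, and 13.2 and 14.3 CPM before and 13.7 and 13.8 CPM after it in SDHA-KO. Its groups overlapped in both genotypes, and its changes did not pass (0.02 ± 0.11, adjusted p = 0.882 in WT and -0.0012 ± 0.11, adjusted p = 0.993 in SDHA-KO).

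**Figure D1:**
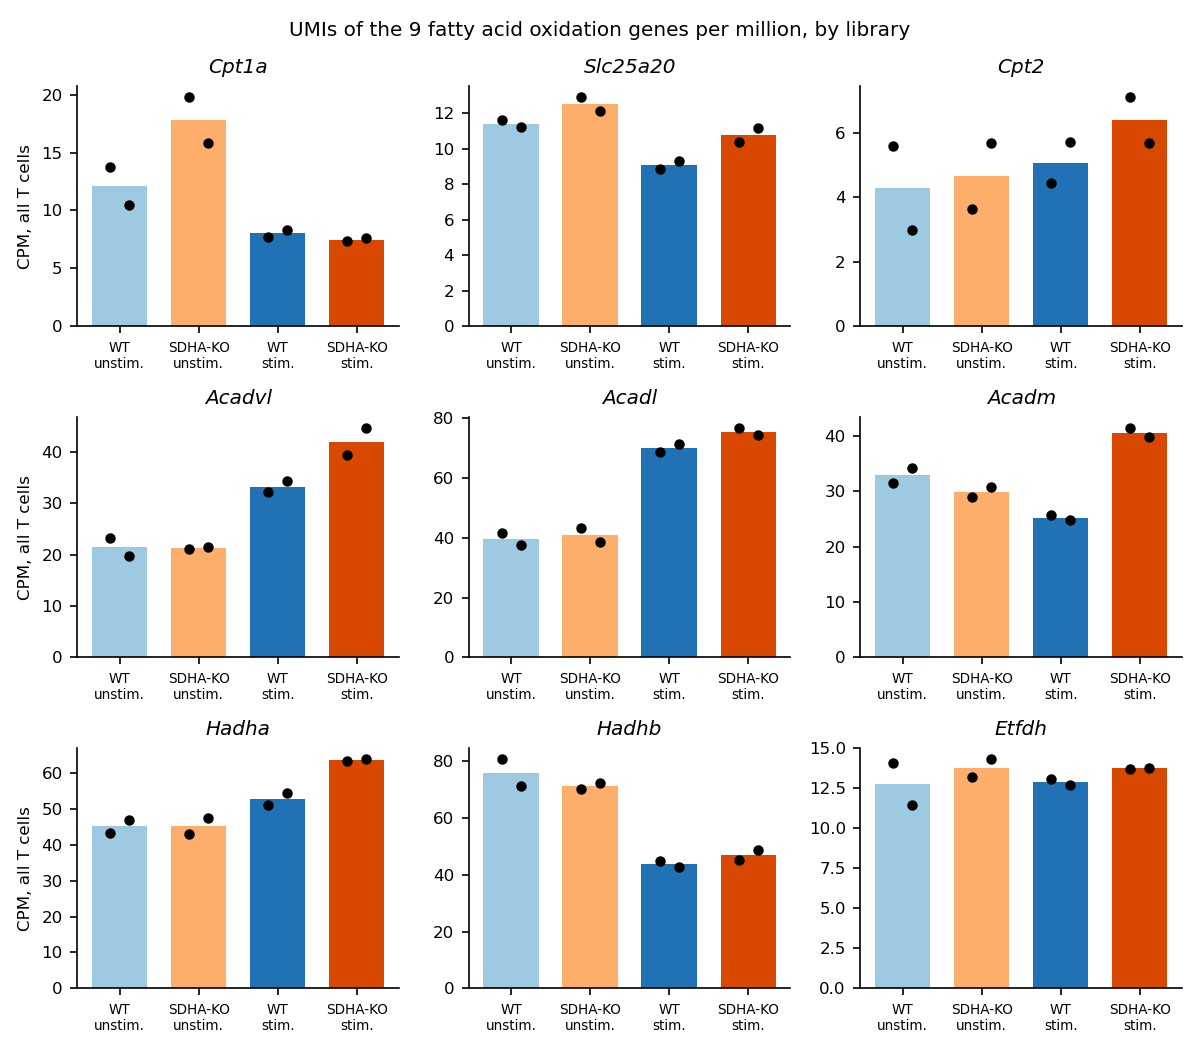
Levels of the 9 genes over all T cells, in CPM scaled by TMM. Bars are means of 2 libraries, points are the libraries, and each panel has its own axis from 0. Hadhb is lower and Acadl higher after stimulation in both genotypes, and Acadm is higher in stimulated SDHA-KO than in stimulated WT.

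In the CD4 class of WT, 4 members passed (Acadvl and Acadl higher, Cpt1a and Hadhb lower), where 66.3% of all genes passed (36.2% higher and 30.1% lower). In the CD8 class 8 passed, 3 higher and 5 lower, where 65.7% of all genes passed (35.5% higher and 30.3% lower), and the count was 5 without stimulated WT replicate 2 and also 5 without unstimulated WT replicate 1. Slc25a20 changed by -0.62 ± 0.16 in CD8 cells (adjusted p = 0.00577) and by -0.08 ± 0.14 in CD4 cells, which did not pass (adjusted p = 0.632). Etfdh had 17.7 and 14.5 CPM before and 12.8 and 12.1 CPM after stimulation in CD8 cells of WT (-0.36 ± 0.15, adjusted p = 0.0481), and in CD4 cells it had 11.9 and 9.28 CPM and then 13.4 and 13.3 CPM (0.34 ± 0.14, adjusted p = 0.0538). The call of Etfdh in CD8 cells was lost without any 1 of 7 libraries (-0.40 to -0.19), and in cells with percent.mt under 10 (-0.31 ± 0.15, adjusted p = 0.0838), and with no composition scaling its sign turned (0.12). Whether the classes differed in their response to stimulation was not tested.

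In SDHA-KO, 6 members passed on stimulation of all T cells (Acadvl, Acadl, Acadm and Hadha higher, Cpt1a and Hadhb lower), where 71.1% of all genes passed (38.5% higher and 32.6% lower). In the CD4 class 7 passed, these 6 and Cpt2, where 69.8% of all genes passed (36.6% higher and 33.2% lower), and in the CD8 class 7, the same 6 and Etfdh, where 68.2% of all genes passed (37.2% higher and 30.9% lower). Cpt1a had the largest fall among them in CD4 cells, from 21.5 and 17.8 to 7.81 and 7.35 CPM (-1.37 ± 0.15, adjusted p = 6.59e-06). In CD8 cells its fall was -0.85 ± 0.23 (adjusted p = 0.0064) and did not pass without unstimulated SDHA-KO replicate 1 (-0.51).

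In cells with percent.mt under 10, where 72.4% of all genes passed in WT, 5 members did. Cpt1a changed by -0.58 ± 0.15 (adjusted p = 0.0066), and Hadhb changed by -0.62 ± 0.08. Acadvl, Acadl and Hadha changed by 1.00 ± 0.10, 1.10 ± 0.08 and 0.37 ± 0.08. With no composition scaling the median of all genes in WT moved by 0.35 to 0.42. Acadvl, Acadl, Hadha and Hadhb kept their sign and call there (0.98, 1.17, 0.57 and -0.45), while Cpt1a no longer passed (-0.25). With limma on mean log values per cell, where each cell counts the same, the falls of Cpt1a, Slc25a20 and Acadm in WT turned to values above 0 (0.00790, 0.0162 and 0.00670). These are differences of mean natural log values scaled to 10000 counts per cell. They are not log2 fold changes, and their size cannot be set beside those.

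**Figure D2:**
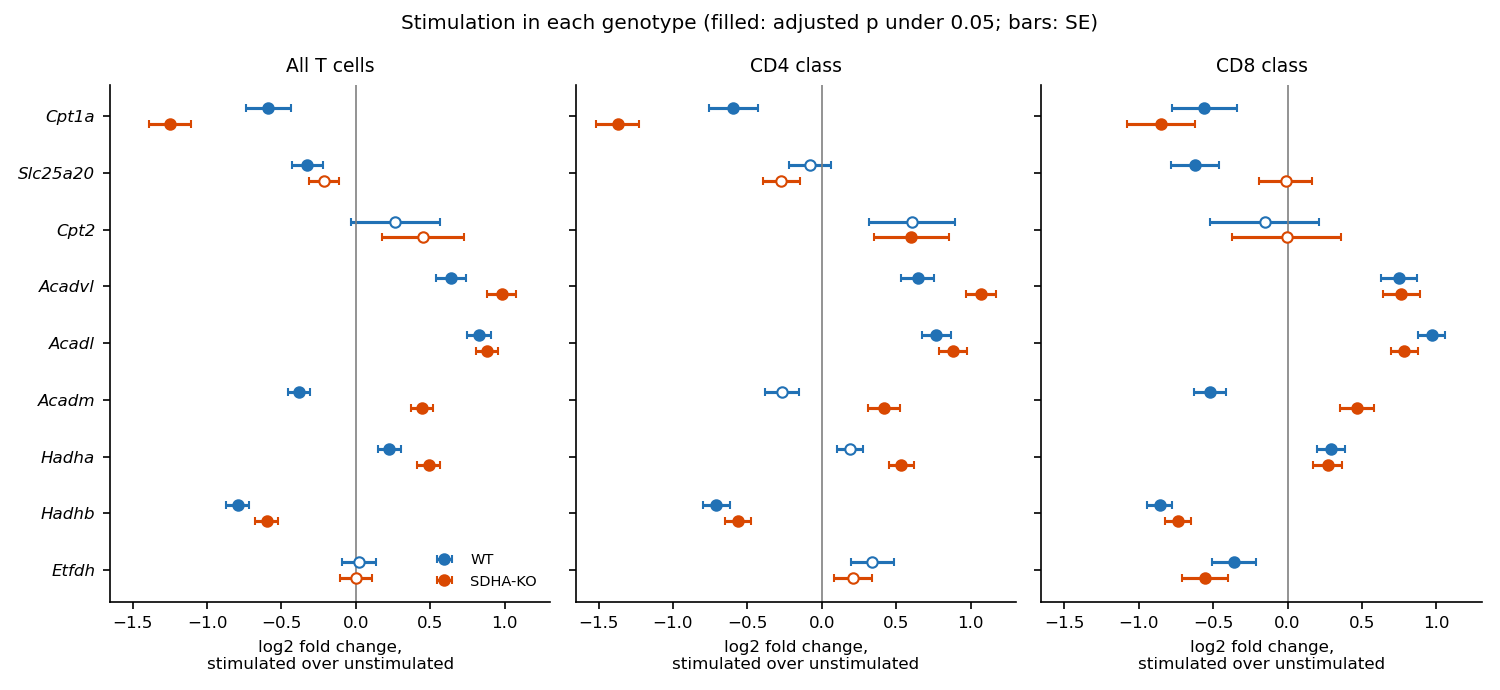
Log2 fold change of stimulated over unstimulated cells for each gene in WT (blue) and SDHA-KO (orange), with SE. Filled points passed an adjusted p of 0.05. Acadm lies left of 0 in WT and right of 0 in SDHA-KO in all 3 panels.

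The trifunctional protein genes diverged. Hadhb, the subunit with thiolase activity, went from 80.7 and 71.2 to 44.8 and 42.8 CPM in WT (-0.79 ± 0.08, adjusted p = 9.53e-06) and from 70.2 and 72.3 to 45.4 and 48.8 CPM in SDHA-KO (-0.60 ± 0.08, adjusted p = 6.09e-05). Hadha, the subunit with hydratase and dehydrogenase activity, went from 43.2 and 47.0 to 51.0 and 54.3 CPM in WT (0.22 ± 0.08, adjusted p = 0.026) and from 43.1 and 47.6 to 63.5 and 63.8 CPM in SDHA-KO (0.49 ± 0.07, adjusted p = 0.000224). No stimulated library overlapped an unstimulated one of its genotype for either gene. The rise of Hadha in WT did not pass without stimulated WT replicate 2 (0.17) or without unstimulated WT replicate 1 (0.21).

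The share of Hadha among the UMIs of both genes does not depend on how libraries are scaled. It was 34.8% and 39.8% in unstimulated WT (95% Wilson binomial intervals 32.2% to 37.6% and 37.2% to 42.4%, for counting error only) and 53.3% and 56.0% in stimulated WT (51.9% to 54.6% and 54.6% to 57.3%). In SDHA-KO it was 38.0% and 39.7% before and 58.3% and 56.7% after stimulation. Every stimulated library lay above every unstimulated one, while the WT libraries overlapped the SDHA-KO libraries before stimulation and lay below them after it. An exact permutation test of 2 libraries against 2 cannot give a p under 0.33, so none is given for the share. In cells with percent.mt under 10 the stimulated shares were 54.1% ± 1.29 in WT and 57.4% ± 1.44 in SDHA-KO (SD, n = 2). In WT the share went from 37.3% ± 3.94 to 52.4% ± 1.59 in CD4 cells and from 37.4% ± 2.73 to 57.2% ± 2.45 in CD8 cells. In CD8 cells the stimulated shares overlapped between the genotypes (55.5% and 59.0% in WT and 59.7% and 58.8% in SDHA-KO). Hadha overlaps Garem2 on the other strand, and Hadhb holds Mir1960 on its own strand, in the annotation used here, and whether counting used strand is not given in the sources used here.

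**Figure D3:**
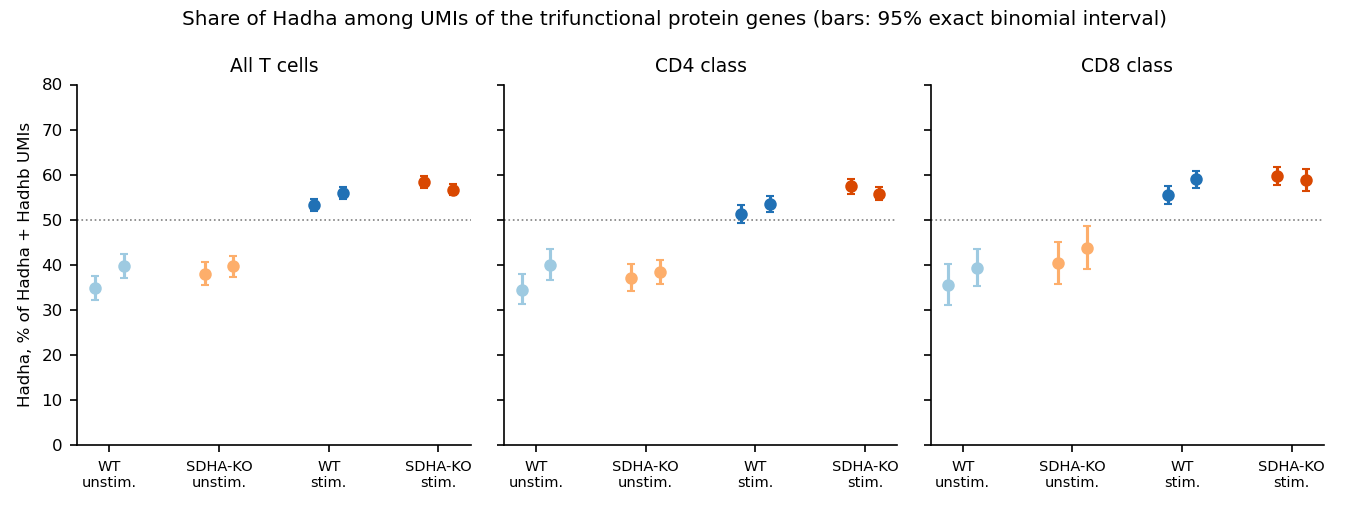
Hadha as a percent of the UMIs of Hadha plus Hadhb in each library, with 95% Wilson binomial intervals (called exact in the title). All 4 unstimulated libraries lie below 50% and all 4 stimulated libraries above it.

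Between SDHA-KO and WT without stimulation, no member passed in all T cells, where 1.75% of all genes passed (0.668% higher and 1.08% lower). Of the 9 members, 1 (Cpt1a) had an unadjusted p under 0.05, DESeq2 called none, and limma on mean log values per cell called Cpt1a. Cpt1a had 19.8 and 15.9 CPM in SDHA-KO and 13.8 and 10.5 CPM in WT, so the groups did not overlap (0.56 ± 0.15, adjusted p = 0.112).

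In CD4 cells no member passed either, where 1.1% of all genes passed (0.526% higher and 0.575% lower), and 2 had an unadjusted p under 0.05 (Slc25a20 and Cpt1a), with none called by DESeq2 and 1 by limma. Cpt1a had 21.5 and 17.8 CPM in SDHA-KO and 13.3 and 10.5 in WT (0.72 ± 0.17, adjusted p = 0.0673). It passed there with no filter on low counts (0.70, adjusted p = 0.00643 in edgeR), with only the unstimulated libraries in the fit (0.69, adjusted p = 0.0276) and with limma (adjusted p = 0.025). In strict CD4 cells it was 0.76 ± 0.19 and did not pass (adjusted p = 0.0919). In CD8 cells no member passed, where 0.947% of all genes passed (0.283% higher and 0.664% lower), and 2 had an unadjusted p under 0.05 (Acadl and Acadm), with none called by DESeq2 and 1, Acadl, by limma. Acadm had 28.2 and 28.1 CPM in SDHA-KO and 38.0 and 33.2 CPM in WT there (-0.33 ± 0.13, adjusted p = 0.269), and Cpt1a differed by 0.10 ± 0.25 (adjusted p = 0.939).

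After stimulation, Acadm, Acadvl and Hadha were higher in SDHA-KO than in WT. Acadm had 41.4 and 39.8 CPM in SDHA-KO and 25.7 and 24.9 CPM in WT (0.68 ± 0.07, adjusted p = 5.24e-05). Acadvl had 39.4 and 44.6 against 32.1 and 34.4 CPM (0.34 ± 0.09, adjusted p = 0.00975), and Hadha 63.5 and 63.8 against 51.0 and 54.3 CPM (0.27 ± 0.07, adjusted p = 0.0101). The groups did not overlap for any of the 3. These 3 of 9 members passed where 47.1% of all genes passed (26.2% higher and 21% lower). The median over the members was 0.24, against 0.0032 over all genes. With percent.mt under 10 the median of the members was 0.03. Within the classes it was 0.19 in CD4 and 0.08 in CD8 cells, and 0.08 and -0.07 with that limit. Of the other 6, Slc25a20 had 10.4 and 11.2 against 8.88 and 9.29 CPM (0.24 ± 0.09, adjusted p = 0.0505) and Cpt1a 7.32 and 7.62 against 7.75 and 8.28 CPM (-0.10 ± 0.13, adjusted p = 0.564), and the changes of Cpt2, Acadl, Hadhb and Etfdh were 0.33 ± 0.24, 0.11 ± 0.07, 0.10 ± 0.07 and 0.09 ± 0.10. Without stimulated WT replicate 1, Acadvl (0.27) and Hadha (0.21) did not pass, and Acadvl did not pass without stimulated SDHA-KO replicate 2 (0.23).

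In cells with percent.mt under 10, Acadm was the 1 member that passed, where 34.3% of all genes did. It had 41.9 and 39.1 CPM in SDHA-KO and 30.2 and 29.5 CPM in WT (0.44 ± 0.07, adjusted p = 0.00171). Acadvl had 38.6 and 43.7 against 39.7 and 41.4 CPM (0.02 ± 0.09, adjusted p = 0.861), and Hadha 61.2 and 60.5 against 54.3 and 56.1 CPM (0.14 ± 0.07, adjusted p = 0.146). The summed level of the 9 members was 260.3 ± 5.16 CPM in WT and 307 ± 3.50 in SDHA-KO over all cells, and 289 ± 2.96 and 297 ± 0.898 CPM in cells with percent.mt under 10 (SD, n = 2).

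As a share of the UMIs of the 3 dehydrogenases, after stimulation Acadm made up 19.6% ± 0.858 in WT and 25.7% ± 0.858 in SDHA-KO (SD, n = 2), and Acadl 54.5% ± 0.208 and 47.8% ± 1.30. Before stimulation the share of Acadm was 35.1% ± 3.31 in WT and 32.4% ± 1.95 in SDHA-KO. In cells with percent.mt under 10 the stimulated shares of Acadm were 19.8% ± 0.488 and 26.2% ± 1.12.

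In CD4 cells the same 3 members passed (Acadm 0.67 ± 0.10, Acadvl 0.38 ± 0.09 and Hadha 0.32 ± 0.08), where 43.2% of all genes passed (22.7% higher and 20.5% lower), and Acadvl and Hadha did not pass there without stimulated WT replicate 1 (0.35 and 0.29). With percent.mt under 10 Acadm alone passed (0.50 ± 0.10, adjusted p = 0.00349). In CD8 cells Acadm alone passed, at 38.4 and 39.4 CPM in SDHA-KO and 25.9 and 23.6 in WT (0.65 ± 0.09, adjusted p = 0.000129), where 50.4% of all genes passed (26.8% higher and 23.5% lower). With percent.mt under 10 it was 0.39 ± 0.09 (adjusted p = 0.00762). In the strict CD8 cells the difference of Acadm was 1.10 ± 0.11 (adjusted p = 4.14e-06), and Acadvl (0.31 ± 0.11, adjusted p = 0.0269) and Cpt1a (-0.79 ± 0.24, adjusted p = 0.0148) passed as well. With the limit on percent.mt added to the strict cells, Acadm (0.83 ± 0.12, adjusted p = 0.000175) and Cpt1a (-0.75 ± 0.27, adjusted p = 0.0447) passed. Shares of all genes passing in strict cells, or in a class under the percent.mt limit, are not given. These calls were not set against a background.

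**Figure D4:**
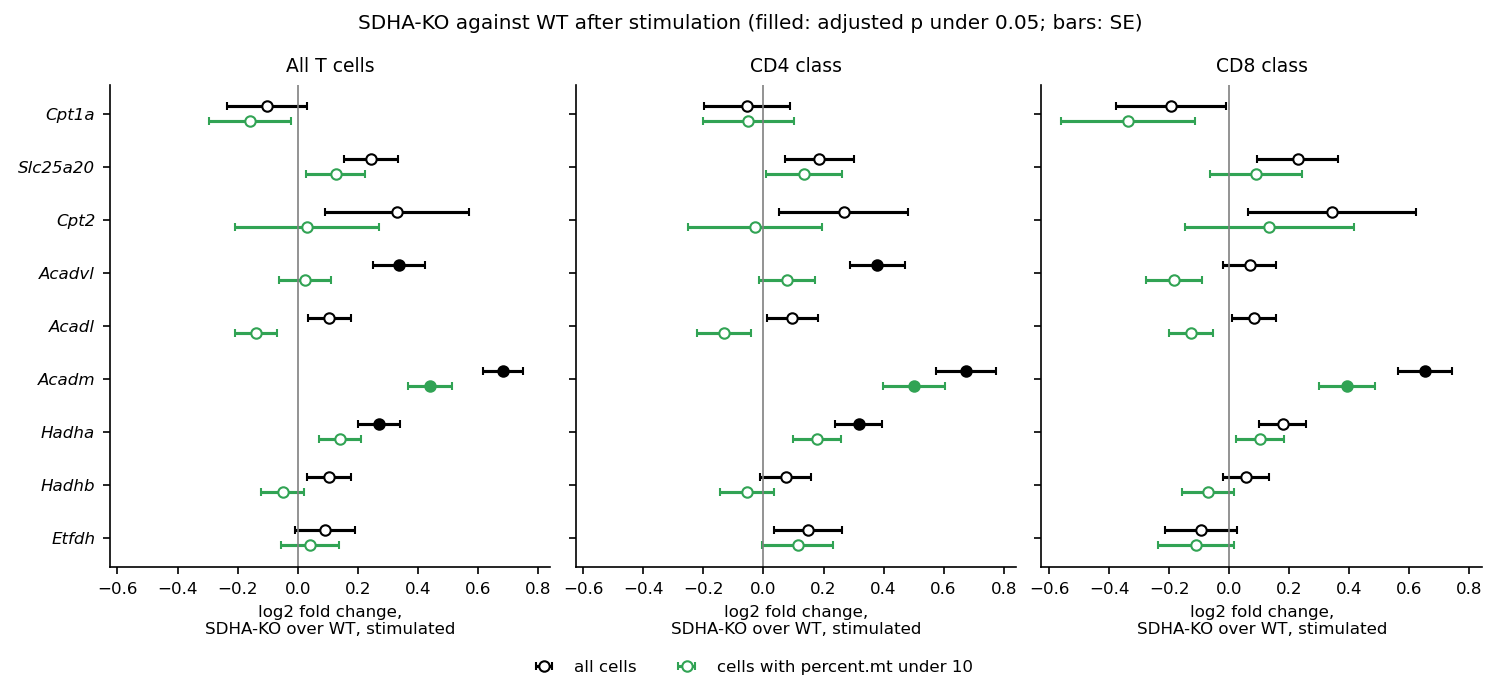
Log2 fold change of SDHA-KO over WT after stimulation, with SE, in all cells (black) and in cells with percent.mt under 10 (green). Filled points passed an adjusted p of 0.05. Acadm is filled in both sets of cells in all 3 panels.

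Whether the SDHA-KO difference changed with stimulation was tested as an interaction. In all T cells Acadm (higher) and Cpt1a (lower) passed, where 27% of all genes passed (15.6% higher and 11.4% lower). For Acadm the difference went from -0.14 ± 0.08 before to 0.68 ± 0.07 after stimulation, an interaction of 0.82 ± 0.11 (adjusted p = 0.000806). It was 0.68 ± 0.16 in CD4 cells (adjusted p = 0.0112), where 21.4% of all genes passed (10.9% higher and 10.5% lower), and 0.99 ± 0.16 in CD8 cells (adjusted p = 0.00151), where 23.7% of all genes passed (13.5% higher and 10.2% lower). In all T cells with percent.mt under 10 it was 0.55 ± 0.11 (adjusted p = 0.0119). In CD4 cells the interaction of Acadm did not pass with percent.mt under 10 (0.51 ± 0.16, adjusted p = 0.0567) or without unstimulated WT replicate 2 (0.51).

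For Cpt1a the difference went from 0.56 ± 0.15 to -0.10 ± 0.13, an interaction of -0.66 ± 0.20 (adjusted p = 0.0392), and of -0.78 ± 0.22 in CD4 cells (adjusted p = 0.0281). In all T cells with percent.mt under 10 it was -0.75 ± 0.20 (adjusted p = 0.0362). The call in all T cells was lost with DESeq2 (-0.67), with libraries thinned to the smallest total (-0.69), with no filter on low counts (-0.65) and without unstimulated SDHA-KO replicate 1, unstimulated WT replicate 2 or either stimulated WT library (-0.72 to -0.51). In CD8 cells the interaction of Cpt1a was -0.29 ± 0.31 and did not pass (adjusted p = 0.559). In strict CD4 cells it was -0.94 ± 0.25 (adjusted p = 0.0228) and that of Acadm 0.72 ± 0.19 (adjusted p = 0.0185), and with percent.mt under 10 as well neither passed. In CD4 cells the call of Cpt1a was lost with DESeq2 (-0.73) and without unstimulated SDHA-KO replicate 1, stimulated SDHA-KO replicate 2, stimulated WT replicate 2 or unstimulated WT replicate 2 (-0.69 to -0.61).

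Within each stimulated library, the level in CPM of nuclear-encoded UMIs was set side by side in cells with percent.mt under 10 and in the others, with no test. Cpt1a had 7.80 and 7.95 under the limit and 14.4 and 15.8 at or above it in the WT libraries. In the SDHA-KO libraries it had 7.66 and 7.90 under the limit and 18.9 and 20.8 above. Above the limit Sdha itself overlapped between the genotypes (127 and 112 in SDHA-KO, 122 and 115 in WT). The ratio of the level under to the level above the limit was 0.543 and 0.502 in WT and 0.406 and 0.379 in SDHA-KO for Cpt1a. The order of the genotypes did not hold within the CD4 class, where the ratio of Cpt1a was 0.526 and 0.508 in WT and 0.901 and 0.379 in SDHA-KO. These SDHA-KO ratios rest on only 9 and 17 UMIs of Cpt1a above the limit. Over all T cells the ratio was below 1 in all 4 libraries also for Slc25a20 (0.434 to 0.680), Acadl (0.622 to 0.894), Hadha (0.576 to 0.692), Hadhb (0.607 to 0.740) and Etfdh (0.559 to 0.780), and lay on both sides of 1 for Cpt2, Acadvl (0.772 to 1.16) and Acadm (0.946 to 1.33). Acadm under the limit had 47.7 and 44.4 in SDHA-KO and 31.3 and 30.2 in WT, and above it 35.9 and 42.6 in SDHA-KO and 33.1 and 28.0 in WT. Acadvl above the limit had 57.0 and 49.7 in SDHA-KO and 36.4 and 36.6 in WT, and under it 44.0 and 49.6 in SDHA-KO and 41.2 and 42.4 in WT. Over all T cells, neither gene overlapped between the genotypes on this scale in either set of cells. The same held within the CD4 class. In the CD8 class Acadm overlapped above the limit but not under it. Acadvl overlapped above the limit in that class. Under it, Acadvl was lower in SDHA-KO (33.76 and 37.97) than in WT (38.25 and 38.83). In CPM with TMM scaling, Acadvl under the limit overlapped over all T cells, as given above.

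**Figure D5:**
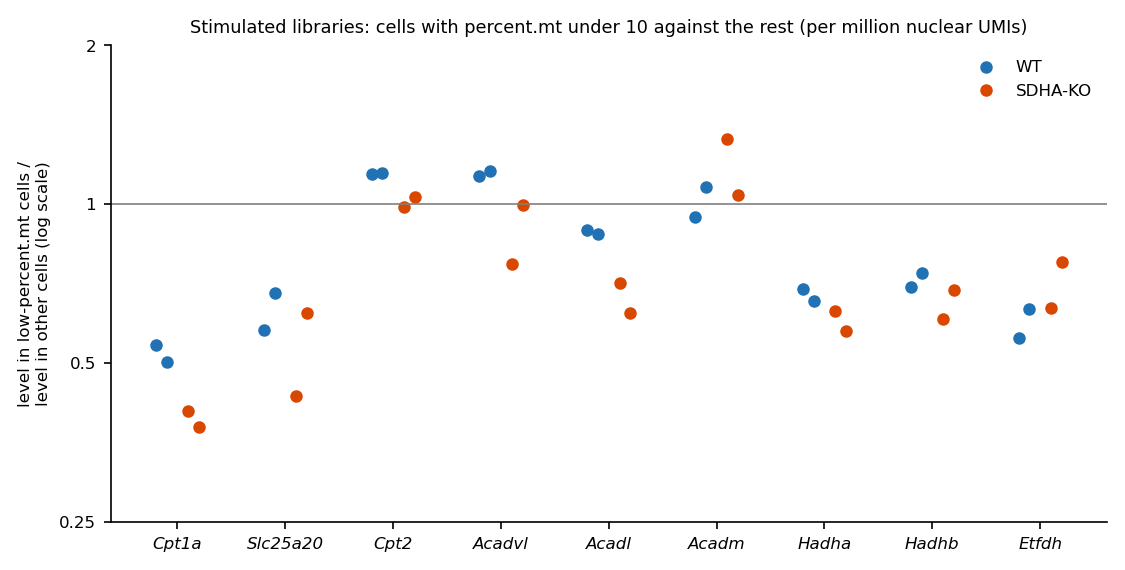
Level in cells with percent.mt under 10 divided by the level in the other cells of the same stimulated library, both in CPM of nuclear-encoded UMIs, on a log axis. Each point is a library. In the other cells the level of Sdha overlapped between the genotypes. Cpt1a lies below 1 in all 4 libraries over all T cells, with 0.406 and 0.379 in SDHA-KO and 0.543 and 0.502 in WT.

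CD8 and CD4 cells of WT differed in 1 member in each state, in fits that took the classes of a library as a pair. The CPM beside them come from the separate fit of each class, each with its own TMM scaling, so they are not on exactly 1 scale. Etfdh was higher in unstimulated CD8 cells, at 17.7 and 14.5 against 11.9 and 9.28 CPM (0.64 ± 0.18, adjusted p = 0.0104), where 22.3% of all genes passed (11.5% higher and 10.8% lower). It was not called by DESeq2 (0.63) or without either unstimulated WT library (0.66 and 0.61). Acadvl was lower in stimulated CD8 cells, at 28.7 and 30.7 against 35.5 and 37.4 CPM (-0.24 ± 0.06, adjusted p = 0.0202), where 23.5% of all genes passed (11% higher and 12.5% lower). It was not called by DESeq2 (-0.25) or without either stimulated WT library (-0.23 and -0.26).

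The SDHA-KO difference of Acadvl after stimulation was smaller in CD8 than in CD4 cells, with a difference of -0.32 ± 0.08 (CD8 minus CD4, adjusted p = 0.0266), the 1 member called where 22.4% of all genes passed (11.9% higher and 10.4% lower). In the strict cells this value was -0.07 ± 0.11 (adjusted p = 0.731) and in cells with percent.mt under 10 -0.29 ± 0.09 (adjusted p = 0.0757). It did not pass with DESeq2 (-0.30), with libraries thinned to the smallest total (-0.33) or without stimulated SDHA-KO replicate 1 or either stimulated WT library (-0.34 to -0.30). For Acadm the value was -0.03 ± 0.10 (adjusted p = 0.844). Before stimulation no member passed, where 0.551% of all genes passed (0.293% higher and 0.258% lower). There 3 members had an unadjusted p under 0.05 (Acadl, Slc25a20 and Cpt1a), and DESeq2 and limma called none.

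The deposited annotation divides each class into numbered subsets named Naive, Tcm, Tem and Treg (central memory, effector memory and regulatory T cells). With the numbers pooled, 9 subsets gave levels in CPM of nuclear-encoded UMIs. Cpt1a in WT was highest in unstimulated CD4 Tem cells at 22.0 ± 3.27 (SD, n = 2), followed by the stimulated Tcm cells of CD8 (15.9 ± 1.54) and CD4 (14.9 ± 1.59), which overlapped each other. From CD4 Treg cells (13.3 ± 0.620) to the stimulated CD8 Tem (7.83 ± 0.489) and CD4 Tem cells (7.34 ± 0.598) each subset overlapped the next in the order. In SDHA-KO the unstimulated CD4 Tem cells (24.3 ± 4.32) and Treg cells (21.8 ± 5.82) were highest and overlapped, and the stimulated CD4 Tem (8.04 ± 0.358) and CD8 Tem cells (6.79 ± 1.61) were again lowest.

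Hadha in WT was highest in stimulated CD8 Tcm (93.0 ± 2.46) and CD4 Tcm cells (77.2 ± 3.67), then in stimulated CD8 Tem (59.1 ± 2.50) and CD4 Tem cells (53.6 ± 0.772), none of which overlapped its neighbour. In SDHA-KO the stimulated CD4 Tcm cells led with 117 ± 3.55. Acadl was highest in stimulated CD8 Tcm cells in WT (101 ± 2.85) and in SDHA-KO (118 ± 4.26), and Etfdh in stimulated CD4 Tcm cells (23.0 ± 1.24 in WT), which overlapped the CD8 Tcm cells (21.6 ± 1.34). Acadm in SDHA-KO was at 46.0 ± 3.09 in stimulated CD4 Tem, 45.6 ± 0.639 in CD8 Tem and 45.2 ± 1.70 in CD8 Tcm cells, with the CD4 Tcm cells at a mean of 45.0, each overlapping the next, and no unstimulated subset overlapped them. In stimulated WT, 31 of 540 and 40 of 594 CD4 Tcm cells and 28 of 648 and 29 of 593 CD8 Tcm cells had percent.mt under 10, so the Tcm name and this property cannot be told apart there. In stimulated SDHA-KO the counts were 102 of 236 and 103 of 223 in CD4 Tcm and 47 of 225 and 22 of 164 in CD8 Tcm cells.

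Single numbered subsets with at least 50 cells in each library gave 16 tests of SDHA-KO against WT across all genes. In the 9 unstimulated subsets no member passed in 65 tests of members, and 5 had an unadjusted p under 0.05, 3 of them of Cpt1a in CD4 Naive subsets and the others of Acadl and Hadhb in CD4 Tem1. These subsets were not tested with DESeq2 or limma. The value of Cpt1a lay above 0 in all 7 unstimulated subsets where it was tested (0.03 to 1.74). In the 7 stimulated subsets 5 calls were made, all higher in SDHA-KO. Acadm passed in CD4 Tem1 (0.50 ± 0.13, adjusted p = 0.0141) and CD4 Tem3 (0.76 ± 0.20, adjusted p = 0.0298), where 27.8% and 23% of all genes did, and passed there with percent.mt under 10 (0.50 ± 0.13 and 0.76 ± 0.20), but in neither of these subsets in strict cells. Acadvl passed in CD4 Tcm2 (1.14 ± 0.25, adjusted p = 0.00462) and CD4 Tcm4 (1.09 ± 0.22, adjusted p = 0.0104), and Hadha in CD4 Tcm4 (0.78 ± 0.14, adjusted p = 0.00673), where 12.9% and 15.1% of all genes did. In CD4 Tcm4 cells with percent.mt under 10 Acadvl passed (1.80 ± 0.50, adjusted p = 0.0372) and Hadha did not. Only 5 of the 9 members were tested there, and stimulated WT had few CD4 Tcm cells under that limit, as given above. In strict cells both calls in CD4 Tcm4 held, that of Acadvl in CD4 Tcm2 was lost, and Acadm passed in CD4 Tem2, a call that all cells of that subset did not give. The values of Acadm and Hadha lay above 0 in all 7 stimulated subsets (0.12 to 0.76 and 0.04 to 0.78). No member passed in CD4 Tem2, CD8 Tem2 or CD8 Tcm4, where Acadm in CD4 Tem2, Acadl in CD8 Tem2 and Etfdh and Cpt1a in CD8 Tcm4 had an unadjusted p under 0.05. Shares of all genes passing are not given for these subsets or the unstimulated ones. Their lack of calls was not set against a background.

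The other genes of the pathway were counted in 6 lists, and over all genes tested on stimulation of WT 37% were higher and 31.9% lower. On stimulation of WT, the other steps of mitochondrial beta-oxidation had 8 of 18 tested genes higher and 5 lower (median 0.20). Etfb, a subunit of the flavoprotein that passes electrons to Etfdh, went from 45.3 ± 2.59 to 121 ± 5.30 CPM (SD, n = 2), and Crat, a carnitine acetyltransferase, rose by 0.95 ± 0.37. The thioesterases Acot2 and Acot13 and the dehydrogenase Acad11 changed by -1.95 ± 0.13, -0.88 ± 0.09 and -0.59 ± 0.15. Cpt1c, a relative of Cpt1a, was listed at 0 in unstimulated WT and had 0.515 ± 0.00240 CPM in stimulated WT. Uptake, activation and carnitine supply had 6 of 12 tested genes higher and 1 lower (median 1.24). The fatty acid carrier Fabp5 went from 8.55 ± 1.23 to 253 ± 9.49 CPM and the acyl-CoA synthetase Acsl3 from 4.85 ± 0.419 to 21.7 ± 0.545 CPM, while Acbd3 changed by -0.26 ± 0.07.

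Peroxisomal beta-oxidation had 2 of 11 tested genes higher and 7 lower (median -0.61). Scp2, a carrier protein and thiolase, went from 233 ± 10.9 to 58.0 ± 3.51 CPM, Ehhadh and Acaa1a changed by -1.46 ± 0.22 and -1.16 ± 0.10, and Pecr and Abcd3 by 2.02 ± 0.15 and 0.81 ± 0.12. Lipolysis and lysosomal supply had 3 of 10 tested genes higher and 3 lower (median 0.17). The lipase Mgll, the triglyceride-making enzyme Dgat2 and the lipid droplet protein Plin2 changed by 2.78 ± 0.44, 2.29 ± 0.48 and 1.92 ± 0.15, and G0s2, an inhibitor of lipolysis, by -5.09 ± 0.32. Regulators had 7 of 15 tested genes higher and 5 lower (median -0.07). Acaca, which makes malonyl-CoA, changed by 2.04 ± 0.08, and Mlycd, which breaks malonyl-CoA down, and the AMP kinase subunit Prkaa1 changed by -0.96 ± 0.12 and -0.93 ± 0.11. Other dehydrogenases that pass electrons to the same flavoprotein had 0 of 5 tested genes higher and 3 lower (median -0.81), with Ivd and Acadsb at -0.90 ± 0.10 and -0.81 ± 0.12. Each change named here passed in edgeR, and that of Acbd3 did not pass with percent.mt under 10.

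Between SDHA-KO and WT after stimulation, 26.2% of all genes were higher and 21% lower, and 34.3% passed in either direction with percent.mt under 10. The other mitochondrial steps had 8 of 18 tested genes higher and 1 lower (median 0.22), and in cells with percent.mt under 10 3 of 18 tested genes higher and 4 lower (median -0.04). Eci1, an enoyl-CoA isomerase, had 59.9 ± 4.58 CPM in SDHA-KO and 29.2 ± 2.33 in WT (1.04 ± 0.10, and 0.63 with percent.mt under 10). Acad11 and Acad10 differed by 0.81 ± 0.13 and -0.73 ± 0.12, and Cpt1c had 2.39 ± 0.260 against 0.515 ± 0.00240 CPM. Uptake, activation and carnitine supply had 2 of 12 tested genes higher and 4 lower (median -0.23), with the fatty acid receptor Cd36 at 3.05 ± 1.07 against 0.165 ± 0.0169 CPM, Acsl3 at 7.33 ± 0.428 against 21.7 ± 0.545 CPM, and the carnitine transporter Slc22a5 at -0.73 ± 0.20, which did not pass with percent.mt under 10 (-0.51). Fabp5 was higher by 0.34 ± 0.08 over all cells and at -0.10 with percent.mt under 10, which did not pass.

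Peroxisomal genes had 3 of 11 tested genes higher and 3 lower (median -0.04), with Hsd17b4 at 0.57 ± 0.07. Lipolysis genes had 4 of 10 tested genes higher and 2 lower (median 0.05), and with percent.mt under 10 0 of 10 tested genes higher and 4 lower (median -0.19). Regulators had 3 of 15 tested genes higher and 4 lower (median -0.02). Ppard, a nuclear receptor for fatty acids, had 19.2 ± 0.290 CPM in SDHA-KO and 38.1 ± 0.570 in WT, the pyruvate dehydrogenase kinase Pdk1 30.7 ± 6.01 against 84.4 ± 0.166 CPM, and Acaca differed by -0.51 ± 0.07. The other dehydrogenases had 2 of 5 tested genes higher and 0 lower (median 0.30), with Gcdh and Ivd at 1.28 ± 0.17 and 0.41 ± 0.09. Without stimulation, 1.75% of all genes passed between the genotypes in all T cells (0.668% higher and 1.08% lower). There 1 of the 18 mitochondrial genes (lower) and 1 of the 12 uptake genes (higher) passed, and none of the other 4 lists had a call.

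Over the 16 sums of library and class, the genes most like Cpt1a among 5762 compared were Kmt2a (Pearson's r = 0.896), Adar (0.883), Zfp148 (0.838), Specc1l (0.822) and Tab2 (0.821). Most like the mean of the 9 members were Prkar1a (0.903), Wbp4 (0.873), Tecpr2 (0.854), Pmepa1 (0.848) and Rpain (0.845). Among the members r ranged from -0.96 (Acadl and Hadhb) to 0.84 (Acadvl and Acadl), with Hadha and Hadhb at -0.73 and Cpt1a and Hadhb at 0.67. Cpt1a, Slc25a20, Cpt2 and Etfdh, with means under 20 CPM, entered as log2 CPM without TMM scaling, and all other genes with it. The values that involve these members therefore mix scales. The sums share libraries, depth and the step between states, so these values are descriptions.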

How the data were processed

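Splenic T cells were profiled with the 10x Genomics 3′ HT v3.1 chemistry. Per the labels and the methods, the authors demultiplexed with bcl2fastq and counted UMIs with Cell Ranger on mm10 (versions not given in the sources used here), removed cells with very many features, and kept clusters with Cd3 transcripts. The deposited counts are raw UMI counts of 20170 genes in 12846 cells. The deposited cell table gives percent.mt as a percent, a CD4/CD8 score as a log10 ratio of Cd4 to Cd8a UMIs, which recomputed from the counts with 0 mismatches, and the CD class and subset.

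UMIs were summed per library, class and subset. edgeR 4.0.16 (R 4.3.3) was run on genes kept by filterByExpr (minimum count 10, minimum total 15) with TMM scaling, 4 groups in the fits of all T, CD4 and CD8 cells, 2 genotypes of 1 state in each subset fit, and Benjamini-Hochberg adjustment over all genes tested, and a gene was called at an adjusted p under 0.05. CPM uses TMM-scaled totals, and subset levels are CPM of nuclear-encoded UMIs. In the comparison of genes for likeness, members with means under 20 CPM were not TMM-scaled. SE is the log2 fold change divided by the root of the F statistic. Subsets needed 50 cells in each library, and 10 for an alternative with restricted cells. Beyond the upper feature limit of the authors, doublets were not looked for. The scripts were tested on simulated data. The members and lists were chosen with earlier results of these data known. Named genes were all members, up to 3 called genes with the largest rise and fall of each list, and the 5 genes most alike. A named result is not reported here. Alternatives were DESeq2 1.42.0, limma 3.58.1, other scalings and filters, thinning, a replicate block, leaving out each library, and restricted cells. Intervals cover counting error only. Promoters came from RefSeq (GRCm38.p6), positions from GENCODE vM21 (GRCm38).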

Additional observations from a re-analysis of the deposited data

Results flagged for a closer look

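The SDHA-KO difference of 2 members differed between unstimulated and stimulated cells, by the interaction term in edgeR. For Acadm the difference was larger after stimulation, and the interaction on the log2 scale was 0.82 over all cells together, 0.68 for the CD4 class and 0.99 for the CD8 class. For Cpt1a the interaction was -0.66 over all cells together and -0.78 for the CD4 class, from a difference before stimulation that did not itself pass to one near 0 after it. It was -0.29 for the CD8 class, where it did not pass, and both calls were lost with DESeq2 and without any 1 of 4 libraries. The SDHA-KO difference of Acadvl after stimulation differed between the classes by -0.32 (CD8 minus CD4), and by -0.07 in strict cells, where it did not pass.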

How the results depend on the processing

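The rises of Acadl and Acadvl in both genotypes and the fall of Cpt1a in SDHA-KO, in all T cells, kept their direction and call under each alternative run. The counts of members called that moved by over 1.5 times were as follows, given here without the share of all genes under each alternative. The cause was not tested. With percent.mt under 10, SDHA-KO against WT after stimulation had 1 in place of 3 in all T cells and 1 in place of 3 in CD4 cells, the CD4 interaction 1 in place of 2, stimulation of WT CD4 cells 7 in place of 4, and the CD8 minus CD4 difference after stimulation 0 in place of 1. In strict cells, SDHA-KO against WT in stimulated CD8 cells had 3 in place of 1 (2 with the percent.mt limit added), CD8 against CD4 cells of stimulated WT 0 in place of 1 (0), the CD8 minus CD4 difference 0 in place of 1 (0), and the subsets 3 in place of 5. With both limits, CD4 cells had 1 in SDHA-KO against WT after stimulation and 0 in the interaction. With DESeq2, the interaction had 1 in all T cells and 1 in CD4 cells, and CD8 against CD4 cells 0 unstimulated and 0 stimulated, and the CD8 minus CD4 difference 0. DESeq2's size factors, leaving out mitochondrially encoded genes, no filter and limma gave 4, 4, 4 and 4 in the CD4 interaction, and no filter gave 1 in that of all T cells. Thinning to the smallest library gave 1 in SDHA-KO against WT after stimulation and 1 in the interaction of all T cells, 0 in stimulated CD8 against CD4 and 0 in the CD8 minus CD4 difference. Limma on mean log values per cell gave 6 in CD4 and 4 in CD8 cells for SDHA-KO against WT after stimulation, 7 in CD4 and 4 in CD8 cells for stimulation of WT, 0 and 2 for unstimulated and stimulated CD8 against CD4, and 1, 1 and 1 in place of 0 for SDHA-KO against WT unstimulated in all T, CD4 and CD8 cells. In CD4 cells no filter and the use of only the libraries compared each gave 1 there. No composition scaling gave 4 in place of 8 for stimulation of WT CD8 cells, 2 in place of 1 for unstimulated CD8 against CD4, and 14 in place of 5 in the subsets. The summed level of the members after stimulation, 260.3 CPM in WT and 307 in SDHA-KO, was 289 and 297 with percent.mt under 10, 290.3 and 335 with no composition scaling, and 316 and 346 with mitochondrially encoded genes left out.

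The sign turned under limma for stimulation of WT in Cpt1a (0.00790 in all T, 0.00440 in CD4 and 0.0112 in CD8 cells), Slc25a20 (0.0162 in all T and 0.00440 in CD8 cells), Acadm (0.00670 in all T cells) and Etfdh (0.0292 in CD8 cells, and 0.00780 in SDHA-KO). These limma values are differences of mean natural log values, not log2 fold changes. With no composition scaling the sign turned in Slc25a20 (0.0189 in all T cells) and Etfdh (0.123 in CD8 cells). Leaving out each library gave 4 to 7, 4 to 6 and 5 to 7 members called on stimulation of WT in all T, CD4 and CD8 cells, 6 to 7, 6 to 7 and 5 to 7 on stimulation of SDHA-KO, 1 to 4, 1 to 3 and 1 to 1 in SDHA-KO against WT after stimulation, and 1 to 2, 1 to 3 and 1 to 1 in the interaction. It gave 0 to 1 and 0 to 1 in unstimulated and stimulated CD8 against CD4, 0 to 1 in the CD8 minus CD4 difference and 3 to 7 in the subsets. With a library left out, its group has 1 library, which is assumed to vary like the others. The labels do not say whether libraries of different groups that share a replicate number share anything else. Correlations of their deviations were -0.23 to 0.17, and with 1 difference per group they cannot show or exclude a shared source. The fit with a replicate block lost 2 calls, of Cpt2 in SDHA-KO CD4 cells (0.60) and Etfdh in WT CD8 cells (-0.36) on stimulation, and changed no other call of a member. Cpt2 and the subset values rest on the lowest counts.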
